A study of Mus musculus with 6 samples.

Results

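Genes for nucleoside transport and adenosine metabolism were compared between CD4 T cells of 2 mouse genotypes. The set holds 10 named genes. They include the concentrative nucleoside transporters Slc28a2 and Slc28a3, the equilibrative transporters Slc29a1, Slc29a2 and Slc29a3, and the ectonucleotidases Entpd1 and Nt5e. The others are the adenosine deaminase Ada, the protease Dpp4, which binds the deaminase in some species, and the adenosine receptor Adora2a. Of the 10 genes, 9 had an array row that carried their symbol alone, each on 1 row, out of 19935 genes measured in this way. Adora2a was not analysed here. The genes were chosen by function, but with earlier results of the same genotype comparison known, among them the fall of Slc28a2. Their own differences and adjusted p-values are therefore given as a description and support nothing further.

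The samples were sorted from mouse lymph nodes as CD4+CD62L- cells, which the labels call resting, and no treatment was given. Dicer WT samples (3 arrays) came from Dicer lox/lox animals negative for CD4Cre, and Dicer KO samples (3 arrays) from Dicer lox/lox animals that carried CD4Cre; the arrays are called WT 1 to WT 3 and KO 1 to KO 3. Dicer is the enzyme that releases mature microRNAs from their precursors, and both genotypes carry the floxed alleles. Cre driven by the Cd4 promoter acts from thymic development onward, so the deletion is not confined to mature CD4 T cells. The series' text calls the samples of a genotype biological replicates. The sources used here state no age or strain.

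Nucleosides are hydrophilic and cross membranes through carriers. SLC28 proteins (concentrative nucleoside transporters) import them together with sodium, against a gradient, whereas SLC29 proteins (equilibrative nucleoside transporters) let them move either way. Outside T cells, ATP is cut by CD39 (Entpd1) and the resulting AMP by CD73 (Nt5e) to adenosine, which restrains T cells through the receptor encoded by Adora2a. Adenosine is removed by deamination (Ada, which in some species is held at the cell surface by CD26, the product of Dpp4) or, inside the cell, by phosphorylation. Loss of ADA activity depletes lymphocytes, which is why this pathway is well studied in T cells.

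Each value below is a deposited log value, read as log2. Every row had been centred on its own 6-array median, so a positive value lies above that median and levels of different genes cannot be compared. The number format of the stored values still gave a coarse class for the level before centring. The row of Dpp4 fell in the higher class (8 or more on the log2 scale) and the other 8 rows in the middle class (4 to 8), where a class can be wrong for a single row. Of the CD4 T cell genes Cd3e, Cd3g, Cd4, Cd28 and Trat1, 4 of 5 fell in the higher class, against 0 of 9 B cell genes and 0 of 10 myeloid and dendritic cell genes. The row of Dicer1 read 0.02 higher in Dicer KO (± 0.09 SE, limma adjusted p = 0.949). Which exons it covers was not analysed here, so the genotypes rest on the labels.

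The upstream sequences of 3 genes are shown. Shown first are those of Slc28a2, the member with the largest negative difference, and Slc28a2b, its measured neighbour, whose array values were most like it. That of Dpp4, the member with the largest positive difference, follows. Each is the 250 bases before the RefSeq start, 5′ to 3′ on the gene's strand, from build GRCm38.p6, at chr2:122426185-122426434 (plus strand), chr2:122484691-122484940 (plus strand) and chr2:62412232-62412481 (minus strand). Capitals mark matches to motifs searched on either strand.
Slc28a2: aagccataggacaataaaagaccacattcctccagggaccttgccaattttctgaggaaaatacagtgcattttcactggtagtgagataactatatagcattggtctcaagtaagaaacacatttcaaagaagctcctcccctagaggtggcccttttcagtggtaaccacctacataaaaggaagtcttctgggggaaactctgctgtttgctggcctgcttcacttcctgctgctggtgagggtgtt
Slc28a2b: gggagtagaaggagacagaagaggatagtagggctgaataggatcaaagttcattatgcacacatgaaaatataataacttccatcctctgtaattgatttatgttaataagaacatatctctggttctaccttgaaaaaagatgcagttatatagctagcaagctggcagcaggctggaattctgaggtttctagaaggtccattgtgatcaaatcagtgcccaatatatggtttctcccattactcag
Dpp4: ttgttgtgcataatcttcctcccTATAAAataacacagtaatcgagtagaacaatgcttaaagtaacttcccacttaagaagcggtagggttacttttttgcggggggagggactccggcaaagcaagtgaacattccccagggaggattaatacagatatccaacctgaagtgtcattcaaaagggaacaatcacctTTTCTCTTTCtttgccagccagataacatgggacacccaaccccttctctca

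The windows of Slc28a2 and Slc28a2b held 0 CpG dinucleotides each and that of Dpp4 held 4, against a median of 6 (quartiles 2 and 16) over 32851 mouse entries of the same length. The window of Slc28a3 held 8, and those of Slc29a2, Slc29a3, Ada and Nt5e held 16, 15, 14 and 21. The 2 windows of Entpd1 held 8 and 18, and the 8 windows of Slc29a1 held 2 to 24. The windows of Slc28a2 and Slc28a2b shared no run of identical bases longer than 8. The 4 motifs searched, chosen after the values had been seen, were the interferon element core GAAANNGAAA (in 2.98% of all windows), the cAMP element TGACGTCA (1.55%), the GC box GGGCGG (32.7%) and the TATA box letters TATAAA (12.4%). None of these letters occurred in the windows of Slc28a2 or Slc28a2b. In Dpp4 the interferon core lay 52 to 43 bases before the start, on the opposite strand, and the TATA letters lay far from the start, at 227 to 222 bases. These matches describe sequence only.

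Of the 9 members, 1 passed the threshold of limma's test across all genes (adjusted p 0.05), where 8.73% of all genes did. It was Slc28a2, which was lower in Dicer KO. The other 8 did not pass, and their differences ran from -0.35 (Slc29a1) to 0.63 (Dpp4). WT and KO arrays were fully separated for 4 members, namely Slc28a2, Slc29a1 and Slc29a2, which read lower in Dicer KO, and Dpp4, which read higher. Such a separation, without overlap, was found for 26.2% of all genes. The median difference was -0.014 over the members and -0.011 over all genes.

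**Figure D1:**
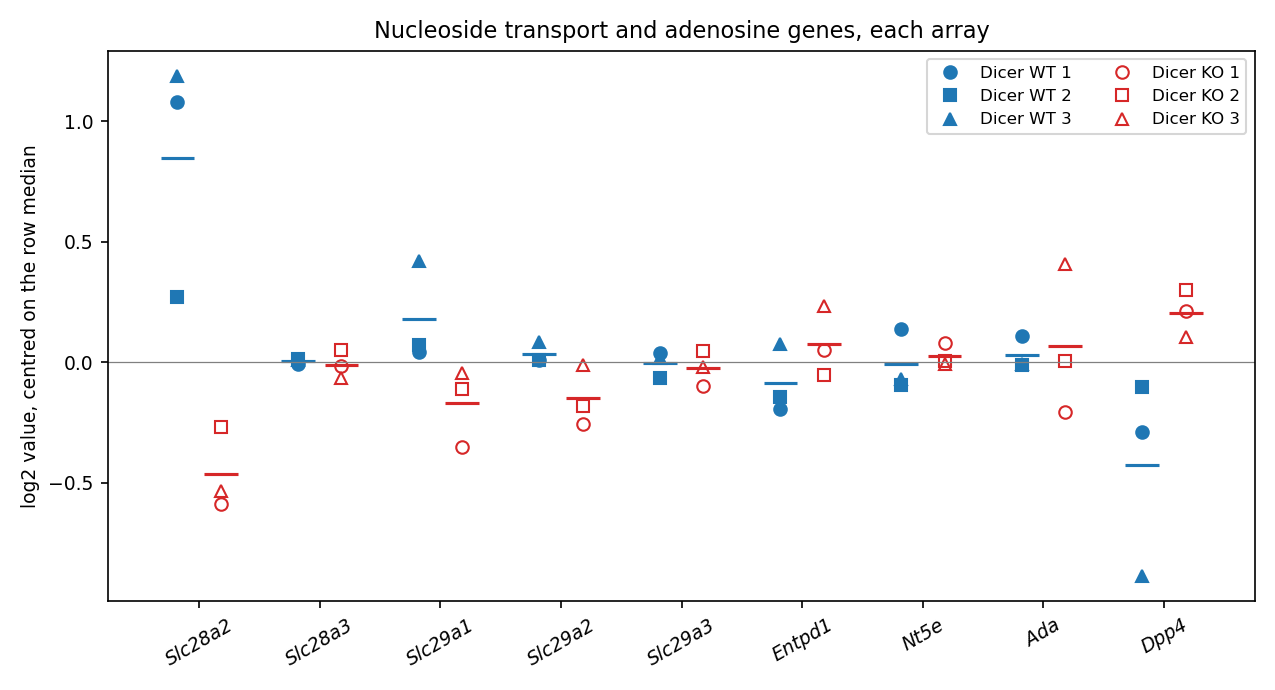
Values of the 9 measured members on each array, on the vertical axis as log2 values centred on the row median. Filled blue symbols are the 3 Dicer WT arrays, open red symbols the 3 Dicer KO arrays, the symbol shape gives the replicate number and bars are genotype means. Slc28a2 shows the widest gap between genotypes, with WT arrays between 0.27 and 1.19 and KO arrays between -0.59 and -0.27, and Dpp4 is the member furthest in the opposite direction.

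Slc28a2 encodes CNT2, the sodium-coupled carrier for purine nucleosides and uridine. Its row read 1.08, 0.27 and 1.19 on WT 1 to WT 3 and -0.59, -0.27 and -0.53 on KO 1 to KO 3. The KO arrays lay close together below all WT arrays, while WT 2 lay nearer to KO 2 than to the other WT arrays. The difference, Dicer KO minus Dicer WT, was -1.31 ± 0.23 (SE, n = 3 per genotype, 95% interval -1.86 to -0.76, limma adjusted p = 0.0167), so that transcript signal was 2.48-fold higher in Dicer WT. Among the 557 genes called lower it had the 3rd largest fall. The call rested on single arrays, as it was lost without WT 1 (-1.19, adjusted p = 0.0691), KO 1 (adjusted p = 0.0503) or KO 2 (adjusted p = 0.0525). Without WT 2 the difference was -1.60 (adjusted p = 0.00496).

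Out of 19934 other genes, Slc28a2b had the 6 array values most like those of Slc28a2. In RefSeq it is the next protein-coding gene on the chromosome among those measured. The root mean square difference between the values of the pair, each centred on its mean, was 0.17 on the log2 scale over 6 arrays. Slc28a2b read 1.26, 0.10 and 1.34 on WT 1 to WT 3 and -0.47, -0.10 and -0.75 on KO 1 to KO 3, and again WT 2 was the WT array nearest to the KO arrays. Its difference was -1.35 ± 0.33 (adjusted p = 0.0526), which did not pass, and passed without WT 2 (-1.75, adjusted p = 0.00986). Both symbols name family 28 transporters of type 2. Whether the probes of one row also bind the transcript of the other gene was not tested, so the signal of Slc28a2 alone is uncertain.

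The nearest measured protein-coding genes on each side of this pair did not pass. On one side, Duox1 and Shf differed by 0.03 ± 0.06 and -0.15 ± 0.07, and on the other Gatm and Spata5l1 by 0.06 ± 0.06 and -0.04 ± 0.09 (limma adjusted p 0.248 to 0.879). These 4 neighbours were picked by position after the values of the pair had been seen. The next most similar patterns to Slc28a2 were those of the ribosomal protein genes Rps21 (root mean square difference 0.28) and Rpl36a (0.28), which passed the threshold with differences of -1.06 and -1.07.

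Markers of B cells, which are abundant in lymph nodes but which the CD4+ gate would remove, were higher on WT 2 than on WT 1 and WT 3, whereas Slc28a2 was lower there. The median of 9 measured B cell genes was -0.45, 0.02 and -0.22 on WT 1 to WT 3 and lay between 0.05 and 0.08 on the KO arrays, so the WT arrays with high Slc28a2 signal had low B cell signal. All 9 differences were positive (0.16 to 0.68) and 0 passed limma's threshold, while 7 had an unadjusted p under 0.05. Over all 19935 genes, 9016 differences were positive, 4285 had an unadjusted limma p under 0.05 and 8.73% passed. WT 1 and WT 3, chosen for their low B cell signal, were then left out, so that WT 2 was the only WT array, assumed to vary like the KO arrays. These are also the arrays with the highest Slc28a2 and Slc28a2b values, so a smaller difference without them follows from the values above. The difference of Slc28a2 was then -0.73 ± 0.14 (adjusted p = 0.105) and that of Slc28a2b -0.55 ± 0.24 (adjusted p = 0.405). The part of B cells in these differences was not tested. In such bulk RNA, fewer cells of a type and less transcript per cell cannot be told apart.

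**Figure D2:**
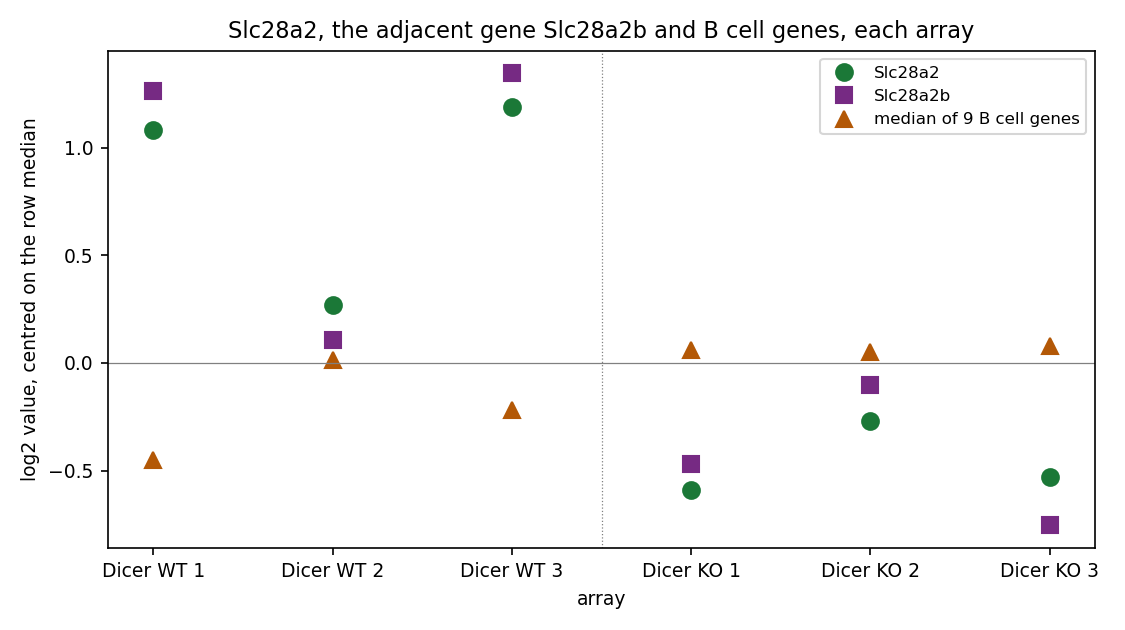
Slc28a2 (circles), Slc28a2b (squares) and the median of 9 B cell genes (triangles) on each of the 6 arrays, as log2 values centred on the row median. The transporter rows are high on WT 1 and WT 3, where the B cell median is -0.45 and -0.22, and lower on WT 2, where it is 0.02.

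The other concentrative transporters did not pass. Slc28a3 encodes CNT3, which accepts purine and pyrimidine nucleosides. It ranged from -0.0083 to 0.015 on the WT arrays and from -0.063 to 0.053 on the KO arrays, and its difference was -0.014 ± 0.050 (95% interval -0.13 to 0.10). A change of the size seen for Slc28a2 lies outside that interval, but the row's level before centring is known only as a coarse class. Whether so flat a row reports its transcript was not tested. Slc28a1, encoding the pyrimidine-preferring CNT1 and outside the chosen set, differed by -0.09 ± 0.08 (adjusted p = 0.645).

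Slc29a1 encodes ENT1, the ubiquitous equilibrative carrier that is blocked by dipyridamole. Its row read 0.045, 0.072 and 0.42 on WT 1 to WT 3 and -0.35, -0.11 and -0.045 on KO 1 to KO 3. The genotypes did not overlap, but the gap between them was narrow and WT 3 and KO 1 gave most of the spread. The difference of -0.35 ± 0.12 (95% interval -0.64 to -0.06) did not pass across all genes (limma adjusted p = 0.146). It was -0.23 without WT 3 and -0.26 without KO 1.

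Slc29a2 encodes ENT2, which also carries nucleobases. Its row read 0.011, 0.0095 and 0.087 on WT 1 to WT 3, against -0.25, -0.18 and -0.0095 on the KO arrays. KO 3 lay next to the WT arrays and the other KO arrays below them. The difference was -0.18 ± 0.07 (95% interval -0.35 to -0.015, adjusted p = 0.192), and -0.25 without KO 3 (adjusted p = 0.0597). Slc29a3, the carrier of intracellular membranes such as lysosomes, ranged from -0.064 to 0.040 on WT and from -0.098 to 0.047 on KO arrays. The genotypes overlapped, with a difference of -0.022 ± 0.059. Slc29a4, the monoamine and adenosine transporter outside the chosen set, differed by -0.033 ± 0.049 (adjusted p = 0.794).

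Slc28a2b aside, all 7 genes of the SLC28 and SLC29 families with a row of their own had a negative difference, where 54.8% of all genes did. Of the 7, 1 passed, Slc28a2, which was chosen with its fall known. The differences of Slc28a3 (-0.014 ± 0.050), Slc29a3 (-0.022 ± 0.059) and Slc29a4 (-0.033 ± 0.049) were smaller than their SE. That of Slc28a1 (-0.09 ± 0.08) was close to its SE. The shared sign therefore does not show a fall of the families as a whole. All 7 differences stayed negative when arrays were centred on their medians, within level classes or by quantiles. With array weights 5 were negative, the exceptions being Slc28a3 and Slc29a3. Slc29a3 was also positive without KO 1, and without WT 1 and WT 3 together, and Slc28a3 without KO 3.

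The enzymes that make extracellular adenosine did not pass. Entpd1 (CD39) hydrolyses ATP and ADP and is abundant on regulatory T cells and B cells. It read -0.19, -0.14 and 0.077 on WT 1 to WT 3 and 0.052, -0.052 and 0.23 on KO 1 to KO 3, so that the genotypes overlapped, WT 3 lying above KO 1 and KO 2. The difference was 0.16 ± 0.10 (95% interval -0.07 to 0.40, limma adjusted p = 0.414). It was 0.25 without WT 3. Nt5e (CD73), which turns AMP into adenosine, read 0.14, -0.093 and -0.068 on WT 1 to WT 3, against 0.079, 0.0045 and -0.0045 on the KO arrays. WT 1 was the highest of the 6 and the other WT arrays the lowest. The difference was 0.03 ± 0.07 (95% interval -0.14 to 0.20).

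Regulatory T cells carry CD39 and CD73 in mice, so their markers stand beside these values. Foxp3, the defining transcription factor, differed by 0.12 ± 0.11 (adjusted p = 0.605) and Il2ra, the interleukin 2 receptor alpha chain, by 0.07 ± 0.05 (adjusted p = 0.475). Of 8 measured regulatory T cell genes 1 passed, or 12.5%, where 8.73% of all genes did. It was Gpr83 (0.92 ± 0.22, limma adjusted p = 0.0471). Gpr83 lost its call in 5 of 6 fits with 1 array left out, passing only without KO 1 (adjusted p 0.0592 to 0.167 in the others). The list median lay between -0.26 and -0.03 on the WT arrays and between 0.04 and 0.12 on the KO arrays, with WT 3 lowest. Their part in the values of Entpd1 and Nt5e was not tested.

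Ada deaminates adenosine and deoxyadenosine to inosine and deoxyinosine. Its row read 0.11, -0.012 and -0.0051 on WT 1 to WT 3 and -0.21, 0.0051 and 0.41 on KO 1 to KO 3. The KO arrays spread on both sides of the WT arrays, KO 3 being the highest of the 6 and KO 1 the lowest. The difference was 0.04 ± 0.14 (95% interval -0.30 to 0.38, adjusted p = 0.933). It was -0.13 without KO 3 and 0.18 without KO 1, and neither passed (adjusted p 0.454 and 0.531).

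Dpp4 encodes CD26, a surface dipeptidyl peptidase that is also a costimulatory molecule of T cells. It had the largest positive difference among the members. The row read -0.29, -0.10 and -0.89 on WT 1 to WT 3, against 0.21, 0.30 and 0.10 on the KO arrays. All KO arrays lay above all WT arrays, and WT 3 lay well below the rest. The difference was 0.63 ± 0.19 (95% interval 0.19 to 1.07), or 1.55-fold higher in Dicer KO, and did not pass across all genes (limma adjusted p = 0.0911). Without WT 3 the difference was smaller but its SE smaller still, at 0.40 ± 0.09, and it passed (adjusted p = 0.0388).

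Naive T cell genes stand beside Dpp4, although the CD62L- gate would remove most naive cells. The median of 7 such genes was -0.05, -0.08 and -0.38 on WT 1 to WT 3, lowest on the array where Dpp4 was lowest, and lay between 0.05 and 0.26 on the KO arrays. All 7 differences were positive and 2 passed, the homing receptor Ccr7 (0.64 ± 0.07) and Igfbp4 (1.01 ± 0.07). All 7 genes fell in the higher level class, where 25.9% of genes passed and the median difference was 0.12. Over all genes, 8.73% passed and 54.8% of differences were negative. The memory marker Cd44 differed by 0.28 ± 0.14 (adjusted p = 0.304) and Cd8a by -0.09 ± 0.18 (adjusted p = 0.857). Of 5 CD4 T cell genes, with a median of 0.13, Cd4 alone passed (0.67 ± 0.07, adjusted p = 0.00328), while Trat1 (-0.61 ± 0.20) and Cd28 (-0.15 ± 0.11) had negative differences. The part of naive cells in the value of Dpp4 was not tested.

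**Figure D3:**
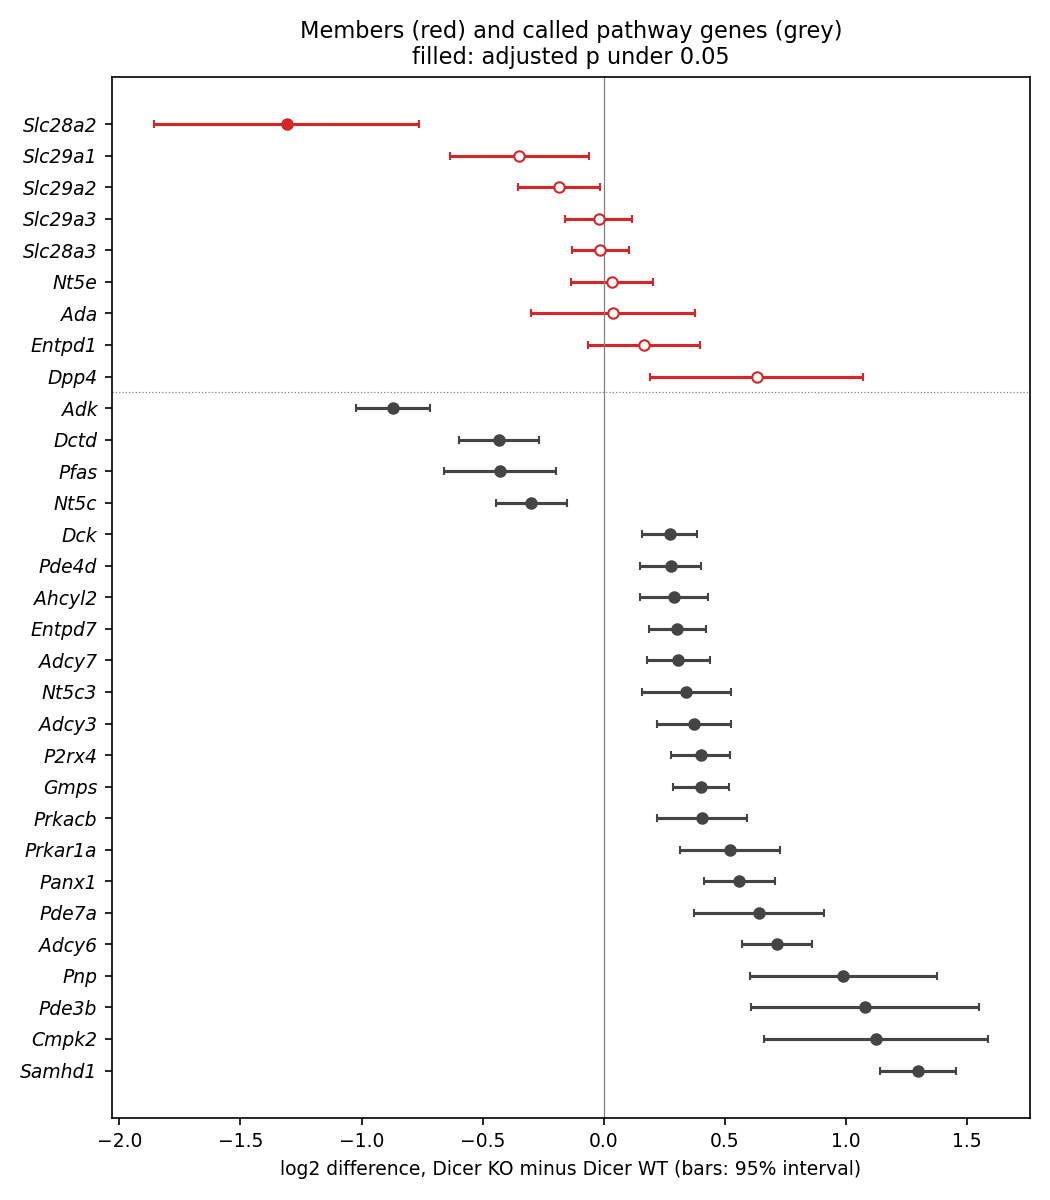
Log2 differences, Dicer KO minus Dicer WT, with 95% intervals from limma (3 arrays per genotype), for the 9 members (red) and for the 22 other pathway genes that passed the threshold (grey). Filled points passed adjusted p 0.05; among the members that is Slc28a2 (-1.31), while Adk (-0.87) and Samhd1 (1.30) lead the other genes in each direction.

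The rest of the pathway was described through 10 lists of 112 genes outside the chosen set. They were drawn up by function, but with earlier results of these data known, so their counts are given as a description. Of the 112 genes, 97 were measured. Of these, 18 rose and 4 fell, or 22.7% in all, where 5.94% of all genes passed higher and 2.79% lower. The median difference of the 97 genes was 0.02. Genes of the higher level class passed more often over the whole array, 25.9% against 5.65% of the others, and the pathway genes divided into 28 of the higher class with 10 called and 69 others with 12 called. In all 22 called genes, WT and KO arrays were fully separated, as they were for 26.2% of all genes. The calls came from the same arrays, so this separation adds no support to them. Centring the arrays within level classes gave 14 higher and 6 lower in place of 18 and 4. The count of higher genes fell to 8 without WT 1, 10 without WT 2 and 7 without KO 2, and 2 genes were called lower without WT 1 or KO 2. Only 6 of the 22 called genes, Adk, Samhd1, Gmps, P2rx4, Panx1 and Adcy6, passed in each of the 6 fits that left out 1 array.

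Adk, adenosine kinase, the enzyme that traps imported adenosine as AMP, fell. It read 0.56, 0.52 and 0.36 on WT 1 to WT 3 and -0.43, -0.36 and -0.38 on KO 1 to KO 3, with tight KO arrays and a wide gap. The difference was -0.87 ± 0.06 (limma adjusted p = 0.000965), or 1.83-fold higher in Dicer WT. It lay between -0.93 and -0.83 with any 1 array left out and was -0.90 without WT 1 and WT 3 (adjusted p = 0.0238).

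Genes of intracellular adenosine and AMP, Adk among them, split by direction, with 2 of 18 higher and 2 lower. Over all genes, 5.94% passed higher and 2.79% lower. The list holds 3 genes of the higher level class, 2 of them called, where 25.9% of all genes in that class were called. The nucleotidase Nt5c fell by 0.30 ± 0.06 on the log2 scale, while the nucleotidase Nt5c3 (0.34 ± 0.08) and Ahcyl2 (0.29 ± 0.06), a relative of the hydrolase that releases adenosine from S-adenosylhomocysteine, rose. These 3 calls were sensitive to single arrays. Nt5c passed only without WT 2 or KO 3 (adjusted p 0.0618 to 0.118 in the other fits), Nt5c3 only without WT 1 (0.090 to 0.129) and Ahcyl2 only without WT 3 or KO 3 (0.0823 to 0.113). Ahcyl2 also lost its call with arrays centred within level classes (0.136).

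In purine salvage and breakdown 3 of 10 genes rose and 0 fell, where 5.94% of all genes passed higher and 2.79% lower. The list holds 5 genes of the higher level class, 2 of them called, where 25.9% of all genes in that class were called. Samhd1, which hydrolyses deoxynucleoside triphosphates, read between -0.70 and -0.57 on the WT and between 0.57 and 0.75 on the KO arrays. Its difference was 1.30 ± 0.07 (adjusted p = 0.000273), and its p ranked 13th from the lowest over all genes. Pnp, the phosphorylase that cleaves the inosine and guanosine formed downstream of Ada, was 1.98-fold higher in Dicer KO. It read -0.39, -0.81 and -0.30 on the WT and 0.30, 0.39 and 0.77 on the KO arrays, a difference of 0.99 ± 0.16 (adjusted p = 0.0131) that was not called without KO 2 (0.0504). The annotation also assigns a row to both Pnp and its close relative Pnp2, which was not used here, so the signal of Pnp alone is uncertain. Dck, which phosphorylates deoxycytidine and deoxyadenosine, rose by 0.27 ± 0.05 and did not pass once WT 1 or either of KO 1 and KO 2 was removed (0.0502 to 0.0697), nor with arrays centred within level classes (0.0784).

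Of 17 pyrimidine genes 1 rose and 1 fell, or 11.8%, where 8.73% of all genes were called. Cmpk2, a mitochondrial nucleotide kinase that is also interferon-inducible, was 2.18-fold higher in Dicer KO (1.12 ± 0.20, adjusted p = 0.0157), though not called without WT 1 or KO 2 (0.0666 and 0.0663). The deaminase Dctd changed by -0.43 ± 0.07 and lost its call without KO 2 (0.0506). Of 10 genes of purine synthesis, Gmps, the last enzyme of GMP synthesis, rose by 0.40 ± 0.05 (adjusted p = 0.00425). Pfas, an early enzyme of the same route, changed by -0.43 ± 0.10, and was not called when KO 3 or a WT array was removed (0.0796 to 0.125).

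On the ATP side of the pathway, 2 of 15 genes of ATP release and P2 receptors rose and 0 fell. These were 13.3% of the list, where 8.73% of all genes were called. Panx1, the pannexin channel that releases ATP, read between -0.36 and -0.20 on the WT and between 0.20 and 0.30 on the KO arrays, a difference of 0.56 ± 0.06 (adjusted p = 0.00323). The ATP-gated channel P2rx4 differed by 0.40 ± 0.05 (adjusted p = 0.0052). Of 10 other ectonucleotidases and relatives 10% were called and 0 fell. Entpd7, an intracellular member of the CD39 family, rose by 0.30 ± 0.05 and was not called without WT 1 (0.0592). The remaining adenosine receptors, Adora1, Adora2b and Adora3, were not analysed here.

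Genes of cyclic AMP signalling, the pathway that adenosine receptors act on, had the highest share of calls among the lists. Of 15 measured genes, 8 were higher and 0 lower, with a median of 0.28, where 5.94% of all genes passed higher. The list was drawn up with earlier results known. It holds 7 genes of the higher level class, 5 of them called, where 25.9% of all genes in that class were called. The adenylyl cyclases Adcy6 (0.71 ± 0.06), Adcy3 (0.37 ± 0.06) and Adcy7 (0.31 ± 0.06), which make cyclic AMP, rose, and so did the phosphodiesterases Pde3b (1.08 ± 0.20), Pde7a (0.64 ± 0.11) and Pde4d (0.28 ± 0.05), which degrade it. The protein kinase A subunits Prkar1a (0.52 ± 0.09), which restrains the kinase, and Prkacb (0.41 ± 0.08), which is catalytic, rose as well. The other 7 did not pass, among them Adcy9 (0.04 ± 0.07), Pde4a (0.01 ± 0.05), Pde4b (0.01 ± 0.07) and Crem, a cyclic AMP-responsive transcription factor (-0.13 ± 0.07).

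The 3 rows of Pde4d disagreed, with differences of 0.13, 0.0072 and 0.69. In place of 8, the list had 2 calls when WT 1, WT 2 or KO 2 was removed, 5 when KO 1 was, and 1 when WT 1 and WT 3 both were. With arrays centred within level classes it had 6, Adcy7 (adjusted p = 0.063) and Prkacb (0.0521) losing their calls. Except for Adcy6, each gene lost its call without at least 1 array: Pde7a without WT 1 (0.0621), Adcy3 without WT 2 or KO 2 (0.0588 and 0.0718), Adcy7 and Prkar1a without either of WT 1 and WT 2 or without KO 2 (0.0527 to 0.0772), Pde3b without those arrays or KO 1 (0.0561 to 0.0739), and Prkacb and Pde4d without any array but KO 3 (0.0535 to 0.0994).

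**Figure D4:**
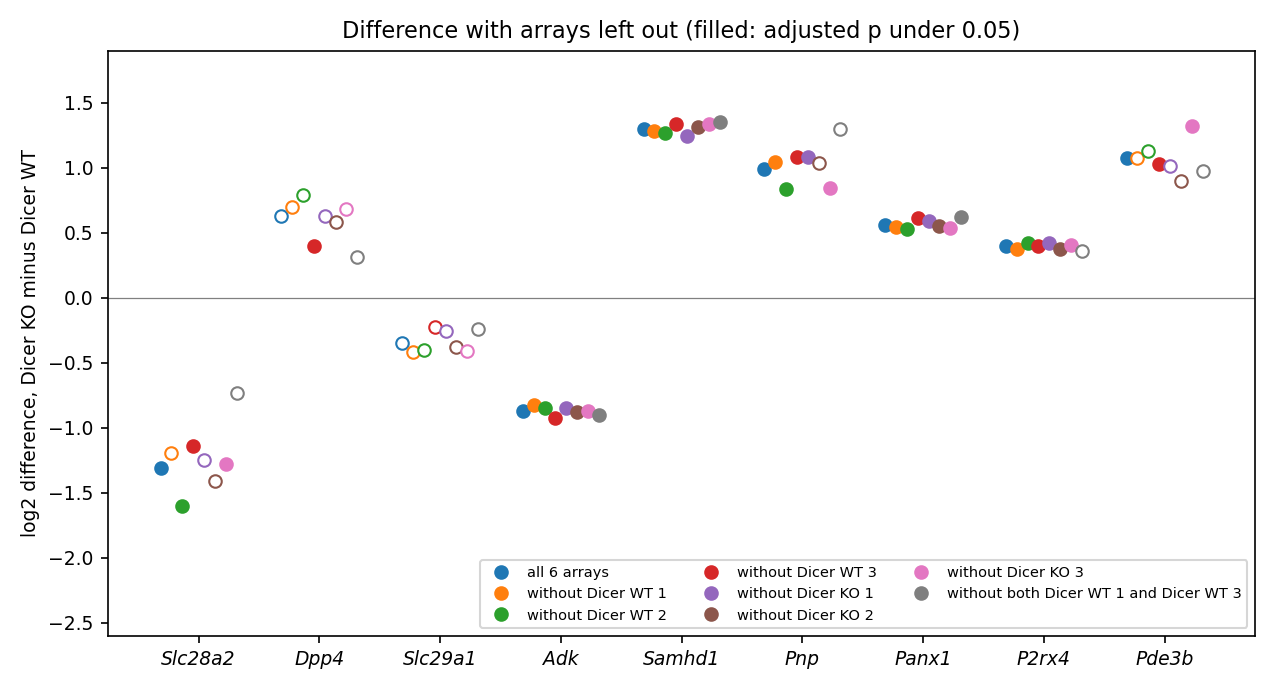
Log2 difference, Dicer KO minus Dicer WT, for 3 members (Slc28a2, Dpp4, Slc29a1) and 6 other pathway genes, with all 6 arrays, with each array left out and with WT 1 and WT 3 left out together. Filled points passed adjusted p 0.05. Slc28a2 lies between -1.60 and -1.14 with 1 array left out, and Adk between -0.93 and -0.83.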

How the data were processed

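Per the labels' protocols, RNA of 6 samples, 3 per genotype, was hybridised to Affymetrix MoGene 1.0 ST arrays. The authors deposited 1 table of log2 values for 28815 rows; base 2 is assumed, and every row is centred on its median (within 5e-07). The submitters' processing notes name MAS5; how arrays were normalized is not stated there. Arrays have no depth, and their number limits the precision.

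Gene names came from GEO's platform annotation, updated through gene IDs of the RefSeq table of GRCm38.p6. Of them, 21780 had 1 symbol, 1605 several and 5430 none; only the first were used, of which 21689 matched. Rows of a gene were averaged. Genotypes were compared with limma 3.58.1 (R 4.3.3; lmFit, eBayes; two-sided), with Benjamini-Hochberg adjustment over 19935 genes and a threshold of 0.05; "called" and "passed" mean below it. Centring left no filter on level. The level class reads the binary step of the stored numbers, with a tolerance of 0.15 steps. It placed 90.3% of 216 ribosomal protein rows but 1.64% of 1035 olfactory receptor rows in the higher class. Because every array must show the coarse step, it is not independent of the genotype difference.

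Named genes are the members; each called gene of the pathway lists, or the lowest p of a list without one; called marker genes, with Cd4, Cd8a, Cd44, Foxp3 and Il2ra (a further sort marker of the rule is not reported here); Dicer1; and, by root mean square difference, the 3 patterns nearest to a called member. Called markers not quoted there were Lyz2 (0.69, adjusted p = 0.0165) and Pecam1 (0.75, adjusted p = 0.00158). The medians of the 6 other marker lists (myeloid, NK, CD8, effector and memory, stromal and erythroid cells) lay between -0.17 and 0.08. Members and lists were chosen with earlier results of these data known. RefSeq promoter entries were found for 9 of 10 members. The procedure was tested on simulated data. Alternatives were array scaling, array weights, a robust variance prior, the higher level class alone, a replicate block and arrays left out.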

Additional observations from a re-analysis of the deposited data

How the results depend on the processing

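The 6 arrays limit the precision, and the single call among the members, that of Slc28a2, depended on which arrays were used. Members called numbered 0 to 2 with 1 array left out, 0 with WT 1 and WT 3 left out together, 2 with array weights (Slc28a2 and Dpp4, the latter at adjusted p = 0.0492) and 1 when the fit was limited to the higher level class, where only Dpp4 was tested (adjusted p = 0.0359). Pathway genes called higher and lower numbered 18 and 4 with all arrays. With 1 array left out they ranged from 7 to 18 and from 2 to 5, without WT 1 and WT 3 they were 4 and 1, and among 28 genes of the higher level class 11 and 2. Over all genes 1741 were called, 729 to 1597 with 1 array left out, 213 without both of those WT arrays and 1014 in the higher class alone. For the cyclic AMP genes, 8 of 15 with all arrays, the calls ranged from 2 to 9 with 1 array left out, and were 1 without WT 1 and WT 3 and 5 of 7 in the higher class. Of the 22 called pathway genes, 18 passed under all 3 other array scalings, and all 22 kept their direction in every fit in which they were tested. No called value changed sign.

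Replicate numbers are shared by the genotypes, but the labels do not say that a number marks a shared litter or day. Over all genes, the deviations of same-numbered arrays from their genotype means correlated at 0.27, -0.08 and 0.30. Of the 6 arrays, 4 correlated best with their own number. These values do not settle whether the arrays are paired. As the labels name no pairing, the main fit left the arrays unpaired. With a replicate block 3 members were called, Slc28a2 (adjusted p = 0.0237), Dpp4 (0.0278) and Slc29a1 (0.037), along with 18 pathway genes higher, 5 lower and 2063 genes in all. Each measured member has 1 row, so averaging the rows of a gene did not alter its array values.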
